A study of Mus musculus with 6 samples.

Results

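The hypoxia and HIF pathway genes described here are Hif1a, Epas1, Arnt, Egln1, Egln3, Vegfa, Adm, Bnip3, Ndrg1 and Ankrd37. These 10 symbols were listed by name, with earlier results of these data known, and matched to Ensembl gene identifiers among the 55421 genes of the count table. All 10 passed the filter on low counts and were among the 14469 genes tested. The question was whether a higher level of Hif1a mRNA in tumor-associated macrophages (TAMs) of mice with myeloid-specific targeting of Pdcd1 came with higher levels of the genes that HIF-1 is known to induce.

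RNA-seq was performed on TAMs of mice that carried floxed alleles of Pdcd1, the gene for the inhibitory receptor PD-1. The control group was Pdcd1f/f and the other group was Pdcd1f/fLysMcre, in which Cre under the lysozyme promoter is designed to remove the floxed segment in myeloid cells, so the floxed alleles were shared by both groups and Cre was present in only the latter. Mice received the M17 tumor named in the labels, which the methods describe as the MC17-51 fibrosarcoma line, and TAMs were obtained from the tumor at day 15 by sorting live cells positive for CD45, CD11b and F4/80 and negative for Ly6G. There were 3 libraries for each genotype. The methods describe young adult mice and the use of males and females in the same number across experiments, and the labels give no age or sex for any library and do not say whether each library came from 1 mouse or from pooled mice. The p-values therefore measure only the spread between these libraries.

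The hypoxia-inducible factors are heterodimers of an oxygen-labile alpha subunit, encoded by Hif1a or Epas1, and a stable beta subunit, encoded by Arnt. In the presence of oxygen, prolyl hydroxylases encoded by the Egln genes mark the alpha subunit for binding by the VHL ubiquitin ligase and degradation, so HIF activity is set largely at the level of protein. In hypoxia the dimer binds the core letters ACGTG or GCGTG near its target genes, and in macrophages of hypoxic tumor regions HIF is known for inducing angiogenic and glycolytic genes. Transcript counts do not measure the HIF proteins.

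The promoters of 8 of the 10 genes could be read from RefSeq (GRCm38.p6), and Epas1 and Ndrg1 had no entry in the table. The 250 bases before each start were searched on both strands for ACGTG and GCGTG, which read CACGT and CACGC on the other strand. All 8 genes held at least 1 match at some listed start. They have 9 entries in the table, and of these the first Vegfa start held no match. Counted by entry, 38.6% of the 32851 promoters in the table and 54.7% of the 12981 entries of genes tested here held a match. The promoters of 4 genes are printed, that of Hif1a because its transcript rose and those of the targets Adm, Bnip3 and Ankrd37 as examples. These targets carry matched letters close to the start, as does Egln1, whose promoter is not printed. Whether matched letters went with a change of the transcript was not tested, and Ndrg1, the target whose transcript rose, had no entry. Each line gives the 160 bases that end just before the start, 5′ to 3′ along the gene, in lower case with the matched letters in capitals.
Hif1a: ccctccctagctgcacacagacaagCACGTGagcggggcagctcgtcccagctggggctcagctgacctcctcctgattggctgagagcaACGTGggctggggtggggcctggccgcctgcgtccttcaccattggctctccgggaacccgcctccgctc
Adm: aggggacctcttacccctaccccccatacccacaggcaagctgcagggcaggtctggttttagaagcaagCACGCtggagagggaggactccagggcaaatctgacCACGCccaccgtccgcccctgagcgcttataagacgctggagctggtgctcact
Bnip3: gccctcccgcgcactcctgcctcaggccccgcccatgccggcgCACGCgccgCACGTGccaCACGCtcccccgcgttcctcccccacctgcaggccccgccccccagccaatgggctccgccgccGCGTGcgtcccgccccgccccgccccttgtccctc
Ankrd37: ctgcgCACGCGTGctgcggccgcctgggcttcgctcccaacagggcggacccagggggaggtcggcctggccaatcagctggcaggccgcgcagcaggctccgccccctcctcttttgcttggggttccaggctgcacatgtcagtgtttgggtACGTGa

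The Hif1a sequence lies at chr12:73907707-73907866 on the plus strand and the Adm sequence at chr7:110627497-110627656 on the plus strand. The Bnip3 sequence lies at chr7:138909507-138909666 on the minus strand and the Ankrd37 sequence at chr8:45999851-46000010 on the minus strand. The palindrome CACGTG holds a match on each strand, and these are counted separately. Bnip3 held 5 matches within its 250 bases, a number reached by 1.86% of the entries of tested genes, and Ankrd37 held 4, a number reached by 4.72%. Adm held 2 matches, and Hif1a itself held 3. At the remaining genes, Egln1 held 2 matches and Egln3 and Arnt held 1 each, while Vegfa held none at its first listed start and 2 at its second. A match describes letters in this window only, and no binding was measured.

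Libraries of the same genotype differed in a way that followed GC content. The deviation of Pdcd1f/f replicate 1 and of Pdcd1f/fLysMcre replicate 2 from the mean of their genotype fell with the GC content of the genes (Spearman rho −0.575 and −0.486 across genes, which are not independent replicates), whereas rho was between 0.117 and 0.508 in the other 4 libraries. Deviations from a mean of 3 libraries sum to 0, so a negative rho in 1 library goes with positive values in others of its genotype. Total counts ranged from 41833823 to 51417209 per library. Pdcd1 itself had between 7 and 16 counts in each library (log2 fold change −0.25, SE 0.45, adjusted p = 0.771 from edgeR), which is too few to check the deletion. Lyz2, the locus that carries Cre, had a mean of 216864 ± 8638 normalized counts without Cre and 427 ± 33.4 with it (SD over 3 libraries), which separated the genotypes as labelled. The presence of Cre, the low Lyz2 and the targeting of Pdcd1 fall in the same libraries, so they cannot be told apart. The sum over 4 Y-linked genes ranged from 1545 to 1914 normalized counts among Pdcd1f/f libraries and from 6267 to 7233 among Pdcd1f/fLysMcre libraries, while Xist, which is expressed from the inactive X chromosome of females, had 17318 to 26511 and 8530 to 13137. Transcripts of both kinds were thus counted in every library, whether a library pooled mice of both sexes was not tested, and the sex of the mice and the genotype cannot be told apart. Macrophage markers were abundant in every library, with summed levels of 9044 to 9814 CPM (counts scaled to a common library total) in Pdcd1f/f and 7326 to 7553 CPM in Pdcd1f/fLysMcre libraries, and 6 of the 9 were past the test threshold and lower, beside 3.01% of all tested genes. In bulk samples fewer cells of a type and less RNA per cell cannot be told apart.

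Hif1a and Ndrg1 were higher in Pdcd1f/fLysMcre TAMs, by 20.7% and 22.0%, and none of the other 8 genes passed the test. Genotypes were compared in edgeR by its quasi-likelihood test (two-sided), with p-values adjusted over all genes tested by the Benjamini-Hochberg method and 0.05 as the threshold. Of the 10 genes 2 were called, where 5.43% of the 14469 tested genes were. Called higher were 2 of 10, beside 2.42% of all tested genes, and called lower were 0 of 10, beside 3.01%. The number called higher was 0 in each fit that left out 1 library other than Pdcd1f/f replicate 1, and with offsets for GC content and length 3 were called higher and 3 lower, where 17.9% of all genes were called. At an unadjusted p under 0.05 there were 2 lower genes, Epas1 and Adm, and the share of all tested genes at this level was not counted. Neither DESeq2 nor limma called a lower gene. Of the 8 genes not called, 7 had a log2 fold change below 0. Over the 10 genes 3 lay above 0 and 7 below, beside 7170 and 7299 of the 14469 tested genes. The median over the 10 genes was −0.08, beside −0.0026 over all genes. The libraries of the genotypes did not overlap at 5 genes, 2 higher (beside 14.7% of all tested genes) and 3 lower (beside 12.8%).

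**Figure D1:**
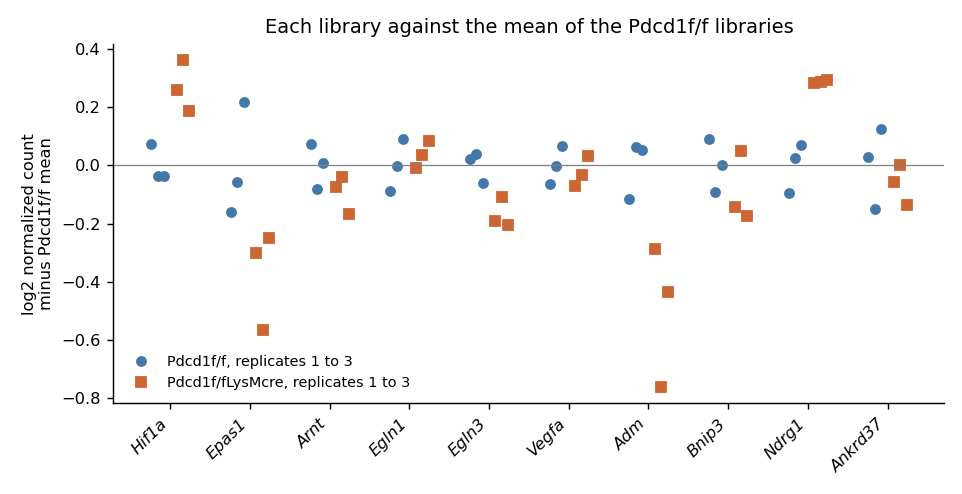
The log2 normalized count of each gene in each of the 6 libraries is plotted relative to the mean of the 3 Pdcd1f/f libraries (circles, Pdcd1f/f; squares, Pdcd1f/fLysMcre; replicates 1 to 3 from left to right). All squares lie above all circles for Hif1a and Ndrg1 and below all circles for Epas1, Egln3 and Adm, while the symbols of the other 5 genes overlap.

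Levels are given as normalized counts, the raw counts divided by a size factor per library, and these are compared between libraries but not between genes. To rank the genes, counts were divided by exon length and library size (CPM per kilobase). On this scale Vegfa had the highest level in Pdcd1f/f TAMs at 96.0 ± 4.30 (SD, n = 3), followed by Hif1a at 77.3 ± 3.31. Among all tested genes Vegfa lay at percentile 96.5 and Hif1a at percentile 96.1 of this level. Bnip3 (42.8 ± 2.54), Ndrg1 (29.1 ± 1.74), Egln1 (20.7 ± 1.26) and Arnt (12.9 ± 0.649) formed the middle of the order. Egln3 (7.19 ± 0.288), Ankrd37 (2.78 ± 0.254), Epas1 (1.59 ± 0.219) and Adm (1.08 ± 0.0757) were the lowest. Neighbors in this order were separated by more than their SDs in Pdcd1f/f TAMs. In Pdcd1f/fLysMcre TAMs the order was the same, but Hif1a at 93.3 ± 5.62 and Vegfa at 94.6 ± 3.39 did not differ beyond their spread.

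**Figure D2:**
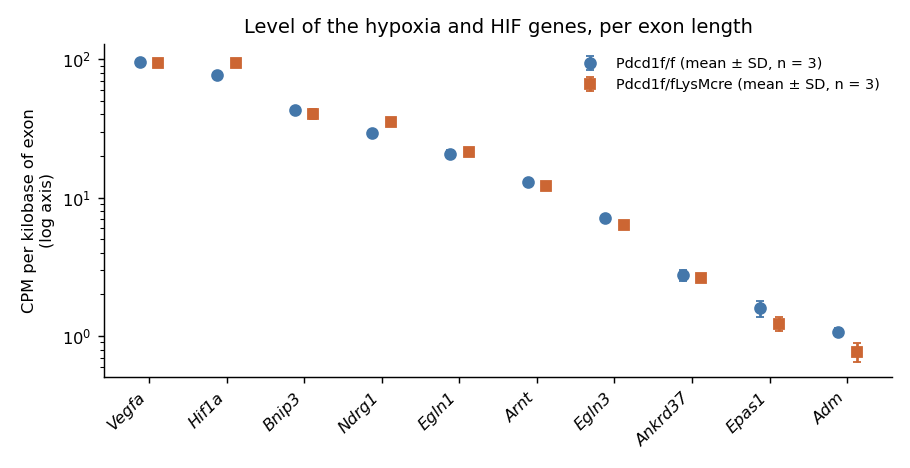
The level of each gene per exon length (CPM per kilobase, log axis) is shown as the mean ± SD of 3 libraries for Pdcd1f/f (circles) and Pdcd1f/fLysMcre (squares). Vegfa and Hif1a lead in both genotypes, and Adm is lowest, at 1.08 and 0.773.

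Among the subunits, Hif1a rose, while its dimer partner Arnt and the alternative alpha subunit Epas1 did not pass the test. Hif1a, which encodes the oxygen-labile subunit of HIF-1, spans chr12:73901375-73947530 of GRCm38. Its normalized counts were 22631, 20950 and 20980 in Pdcd1f/f TAMs and 25726, 27614 and 24480 in Pdcd1f/fLysMcre TAMs. Every Pdcd1f/fLysMcre library lay above every Pdcd1f/f library, and the highest value of each genotype came from the library with the negative rho to GC content. The means were 21520 ± 962 and 25940 ± 1578 (SD, n = 3 each), a rise of 20.7% with a 95% interval of 8.98% to 33.7% (log2 fold change 0.27, SE 0.07, adjusted p = 0.0420). An exact permutation test on 1 gene with 3 against 3 libraries cannot give a p below 0.1.

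The size of the Hif1a rise changed when GC content and gene length were corrected together, and its call changed with which library was left out. The GC content of the longest Hif1a transcript is 41.3%, below the median of 49.2% over tested genes. Once offsets for the GC content and length of genes were fitted together, its log2 fold change was 0.14 (adjusted p = 0.0122), and GC content alone was not fitted. Its direction was kept without any one library, with log2 fold changes of 0.22 to 0.31, but the gene passed the threshold in 1 of these 6 fits, that without Pdcd1f/f replicate 1 (adjusted p = 0.00781). The adjusted p was 0.207 without Pdcd1f/f replicate 2, 0.154 without Pdcd1f/f replicate 3, and 0.152, 0.119 and 0.0568 without Pdcd1f/fLysMcre replicates 1, 2 and 3. With both of those libraries, Pdcd1f/f replicate 1 and Pdcd1f/fLysMcre replicate 2, left out, the log2 fold change was 0.26 (adjusted p = 0.000537). Over all 16 alternatives the adjusted p ranged from 0.000537 to 0.207. The annotation places an antisense gene, Gm15283, across Hif1a, to which 12 to 25 counts were assigned per library, and the overlapping same-strand gene Gm49321 had 0 counts in every library. Whether strand was used in counting is not given in the sources used here, so reads of antisense partners cannot be told apart.

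Epas1 encodes HIF-2 alpha, the alternative alpha subunit, and lies at chr17:86753700-86833410. It was counted at 372, 400 and 484 in Pdcd1f/f and at 338, 281 and 350 in Pdcd1f/fLysMcre libraries, as normalized counts. All Pdcd1f/fLysMcre libraries lay below all Pdcd1f/f libraries, in the opposite direction to Hif1a. The means were 419 ± 58.4 and 323 ± 36.8 (log2 fold change −0.37, SE 0.13, 95% interval −0.66 to −0.08), and the adjusted p of 0.123 missed the threshold. Epas1 was past it in 5 of 16 alternatives, among them the fit with GC and length offsets (−0.32, adjusted p = 0.0386) and the fit without Pdcd1f/f replicate 1 (−0.46, adjusted p = 0.0265).

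Arnt, the constitutive beta subunit that dimerizes with both alpha subunits, lies at chr3:95434388-95497240. Normalized counts were 5122, 4598 and 4898 in Pdcd1f/f and 4627, 4730 and 4333 in Pdcd1f/fLysMcre libraries. The genotypes overlapped (log2 fold change −0.09, SE 0.07, 95% interval −0.24 to 0.05, adjusted p = 0.419). Only the fit with GC and length offsets and no block called it (−0.13, adjusted p = 0.0430).

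Ratios of counts within a library do not depend on the scaling between libraries. The ratio of Hif1a to Epas1 counts was 60.9, 52.4 and 43.3 in Pdcd1f/f and 76.2, 98.3 and 69.9 in Pdcd1f/fLysMcre libraries, a log2 difference of 0.64. The ratio of Hif1a to Arnt counts was 4.42, 4.56 and 4.28 against 5.56, 5.84 and 5.65, a log2 difference of 0.36. For both ratios the genotypes were separated without overlap. The two-sided exact permutation p was 0.1 for each, the smallest that this design allows, and 6 such ratios were computed, so none can pass an adjustment.

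The prolyl hydroxylases were not called. Egln1 encodes PHD2, the main oxygen sensor for HIF-1 alpha in many cells and itself a HIF target, and lies at chr8:124908587-124949324. Its normalized counts were 3304, 3503 and 3734 in Pdcd1f/f and 3485, 3598 and 3717 in Pdcd1f/fLysMcre libraries. The Pdcd1f/fLysMcre values all lay within the range of the Pdcd1f/f values, and the log2 fold change was 0.04 (SE 0.07, 95% interval −0.11 to 0.19, adjusted p = 0.775). With GC and length offsets the log2 fold change was 0.16 (adjusted p = 0.0351), whereas without Pdcd1f/f replicate 1 it was −0.014 (adjusted p = 0.905). The longest transcript of Egln1 has a GC content of 56.0%.

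Egln3 encodes PHD3, a hydroxylase whose transcript is strongly induced by hypoxia in many cells, and lies at chr12:54178981-54203860. It had 916, 928 and 865 normalized counts in Pdcd1f/f and 791, 838 and 784 in Pdcd1f/fLysMcre libraries. The Pdcd1f/fLysMcre libraries were all below the Pdcd1f/f libraries. The log2 fold change was −0.17 (SE 0.08, 95% interval −0.34 to 0.01, adjusted p = 0.228), and none of the 16 alternatives called it. The ratio of Hif1a to Egln3 counts was 24.7, 22.6 and 24.2 against 32.5, 33.0 and 31.2, again without overlap (log2 difference 0.44, exact permutation p = 0.1).

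Of the other targets, Ndrg1 rose and Vegfa, Adm, Bnip3 and Ankrd37 were not called. Ndrg1, a stress-responsive gene that hypoxia induces in many cell types, lies at chr15:66929318-66969640. It was counted at 8484, 9216 and 9525 in Pdcd1f/f and at 11019, 11046 and 11100 in Pdcd1f/fLysMcre libraries. The Pdcd1f/fLysMcre libraries were nearly equal to each other and all above the Pdcd1f/f libraries. The means were 9075 ± 535 and 11055 ± 41.2, a rise of 22.0% with a 95% interval of 10.7% to 34.4% (log2 fold change 0.29, SE 0.06, adjusted p = 0.0275). Offsets for GC content and gene length left the value at 0.29 (adjusted p = 8.2e-05).

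The size of the Ndrg1 rise was similar with fewer libraries, while its call was often lost. Its log2 fold change was 0.23 to 0.32 when any one was left out, and the gene was past the threshold in 1 of those 6 fits. The adjusted p was 0.135 without Pdcd1f/f replicate 2, 0.0522 without Pdcd1f/f replicate 3, and 0.126, 0.0715 and 0.0749 without Pdcd1f/fLysMcre replicates 1, 2 and 3. The call was kept without Pdcd1f/f replicate 1 (0.23, adjusted p = 0.0170), and without that library and Pdcd1f/fLysMcre replicate 2 together (0.24, adjusted p = 0.00147). The ratio of Hif1a to Ndrg1 counts was 2.67, 2.27 and 2.20 in Pdcd1f/f and 2.34, 2.5 and 2.21 in Pdcd1f/fLysMcre libraries. This ratio overlapped between the genotypes (log2 difference −0.02, exact permutation p = 0.9).

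Vegfa encodes the main angiogenic growth factor under HIF control and lies at chr17:46016993-46032369. Its normalized counts were 18581, 19384 and 20328 in Pdcd1f/f and 18505, 18992 and 19836 in Pdcd1f/fLysMcre libraries. The values of both genotypes covered nearly the same range. The log2 fold change was −0.02 (SE 0.06, 95% interval −0.16 to 0.12, adjusted p = 0.862), and its sign turned under several alternatives, between −0.062 and 0.0095. The ratio of Hif1a to Vegfa counts was 1.22, 1.08 and 1.03 against 1.39, 1.45 and 1.23 (log2 difference 0.29, exact permutation p = 0.1).

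Adm encodes adrenomedullin, a vasodilator peptide induced by hypoxia, and lies at chr7:110627661-110629820. Its raw counts were low, 82, 77 and 78 in Pdcd1f/f and 73, 51 and 62 in Pdcd1f/fLysMcre libraries, which limits the precision of its change. The normalized counts were 76.0, 86.0 and 85.4 against 67.5, 48.6 and 61.0, with every Pdcd1f/fLysMcre library below every Pdcd1f/f library. The log2 fold change was −0.48 (SE 0.20, 95% interval −0.91 to −0.04, adjusted p = 0.170), and no alternative called the gene.

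Bnip3 encodes a mitochondrial protein that promotes mitophagy in hypoxia and lies at chr7:138890836-138909519. Normalized counts were 4862, 4288 and 4578 in Pdcd1f/f and 4135, 4730 and 4049 in Pdcd1f/fLysMcre libraries. As with Hif1a, the highest value of each genotype came from the library with the negative rho to GC content, and the longest transcript of Bnip3 has a GC content of 41.6%. The genotypes overlapped, with a log2 fold change of −0.09 (SE 0.08, 95% interval −0.26 to 0.09, adjusted p = 0.529). With GC and length offsets Bnip3 was called lower (−0.18, adjusted p = 0.00921). The ratio of Hif1a to Bnip3, of nearly equal GC content, was 4.66, 4.89 and 4.58 in Pdcd1f/f and 6.22, 5.84 and 6.05 in Pdcd1f/fLysMcre libraries, without overlap (log2 difference 0.36, exact permutation p = 0.1). Bnip3 has 5 near-identical copies in the annotation (at least 95% identity over at least 200 bases), which had at most 12 counts in any library, so few reads were assigned to them in place of Bnip3.

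Ankrd37, a small ankyrin repeat gene known as a direct HIF-1 target, lies at chr8:45996902-46005707. It was counted at 205, 181 and 219 in Pdcd1f/f and at 193, 201 and 183 in Pdcd1f/fLysMcre libraries. The genotypes overlapped (log2 fold change −0.07, SE 0.13, 95% interval −0.35 to 0.21, adjusted p = 0.790), and no alternative called the gene. A 57-base stretch of Ankrd37 is shared with Ufsp2 on the other strand, which had 2626 to 3539 counts per library, so some reads there could belong to either gene.

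**Figure D3:**
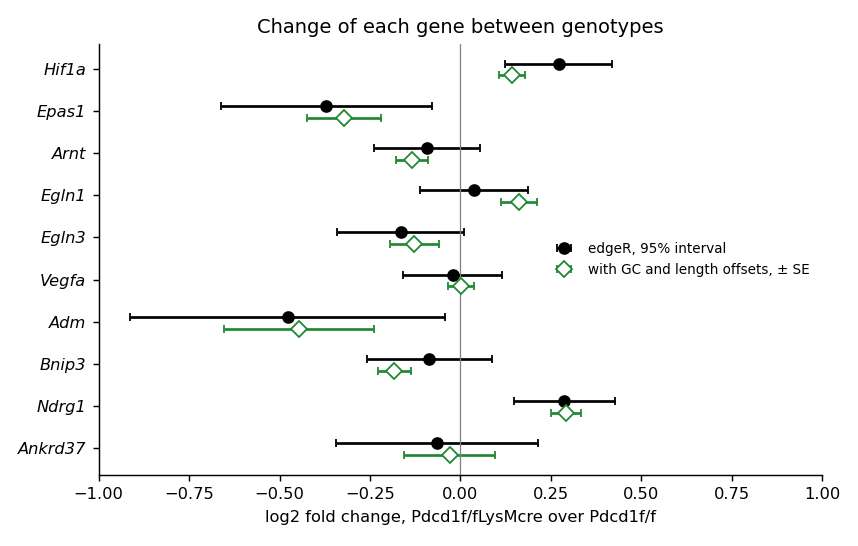
The log2 fold change of each gene, Pdcd1f/fLysMcre over Pdcd1f/f, is plotted from edgeR with its 95% interval (filled circles) and from the fit with offsets for gene length and GC content with its SE (open diamonds). The intervals of Hif1a and Ndrg1 lie above 0, those of Epas1 and Adm lie below 0 with adjusted p-values of 0.123 and 0.170, and the offsets move Hif1a from 0.27 to 0.14.

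Among the 10 genes 7 are HIF targets, counting the hydroxylases Egln1 and Egln3 with Vegfa, Adm, Bnip3, Ndrg1 and Ankrd37. Of these 7, 1 rose and 6 were not called, and 5 of the 6 had a log2 fold change below 0. The upper ends of their 95% intervals were at most 0.21, which lies inside the interval of 0.12 to 0.42 for Hif1a, and differences in log2 fold change between genes were not tested. With the offsets for GC content and gene length, where Hif1a was at 0.14, the estimate for Egln1 was 0.16 and that for Ndrg1 was 0.29. The other targets lay below Hif1a in that fit. Vegfa was at 0.0015, Ankrd37 at −0.03, Egln3 at −0.13, Bnip3 at −0.18 and Adm at −0.45.

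Over the 6 libraries, the genes whose mean-centered log2 CPM profiles lay closest to that of Hif1a were Slc25a24, Glce, Ybx3, Nsl1 and Ola1. Their root-mean-square distances from Hif1a were 0.0131, 0.0166, 0.0174, 0.0181 and 0.0189 on the log2 scale, beside a median of 0.22 over all genes tested. The distance includes the genotype difference, so log2 fold changes near that of Hif1a were fixed by this choice and are given as a description, at 0.29 for the mitochondrial carrier gene Slc25a24, 0.27 for Glce, 0.27 for Ybx3, a gene for a nucleic acid-binding protein, 0.24 for Nsl1 and 0.28 for Ola1. Among the HIF pathway genes Ndrg1 was nearest to Hif1a, at a distance of 0.101, and 2099 genes were closer. Adm was farthest at 0.431, followed by Epas1 at 0.380.

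**Figure D4:**
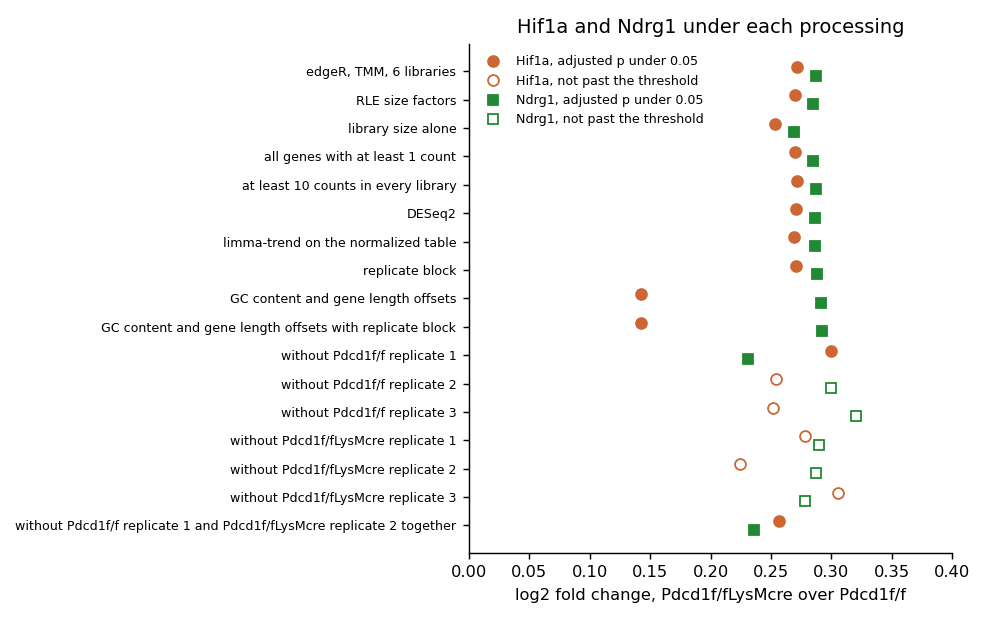
The log2 fold changes of Hif1a (circles) and Ndrg1 (squares) are plotted for edgeR with all 6 libraries and for 16 alternatives, with filled symbols where the adjusted p was under 0.05. Both genes stay above 0 throughout, both are past the threshold in 11 of 16 alternatives, and the open symbols are all fits that leave out 1 library.

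The rest of the pathway was described from 3 further lists. The first held 20 other HIF subunits and regulators, of which 18 were tested, and none was called. At an unadjusted p under 0.05 there were 2 higher and 1 lower, without a count of all tested genes at this level. DESeq2 and limma also called 0, beside 12% and 4.57% of the genes to which they gave an adjusted p. The median log2 fold change was 0.0047. Other fits called some of them, 1 lower with all genes of at least 1 count (beside 7.32% of all genes), 3 higher with GC and length offsets but 1 higher with these offsets and the replicate block (beside 18%), 1 higher and 2 lower without Pdcd1f/f replicate 1, and 1 higher and 3 lower with Pdcd1f/fLysMcre replicate 2 left out as well. In the offsets alone and the latter 2 fits 17.9%, 21.6% and 26.2% of all genes were called. Hif1an encodes FIH, the asparaginyl hydroxylase that blocks the HIF transactivation domain. It was at 1136 ± 34.0 in Pdcd1f/f and 1267 ± 19.3 normalized counts in Pdcd1f/fLysMcre TAMs (log2 fold change 0.16, adjusted p = 0.194). Cited2, which competes with HIF-1 alpha for its co-activators, was at 8211 ± 346 and 9132 ± 458 (0.16, adjusted p = 0.168). For both genes all Pdcd1f/fLysMcre libraries lay above all Pdcd1f/f libraries. Over the 18 tested genes of this list this held at 3 (beside 14.7% of all tested genes). At 1 gene of the list they all lay below (beside 12.8%). Vhl, the substrate receptor of the ubiquitin ligase that degrades HIF alpha subunits, was at 857 ± 46.1 and 865 ± 53.2 (0.02, adjusted p = 0.923). Stat3, a transcription factor that can cooperate with HIF-1, was at 12935 ± 388 and 11690 ± 232 (−0.14, adjusted p = 0.161). These 4 genes were picked once their values were known.

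The second list held 42 HIF targets outside glycolysis, of which 41 were tested. Of these 3 rose, 6 fell and 32 were not called, so that 22.0% were called beside 5.43% of all genes. DESeq2 called 3 higher and 10 lower, beside 12% of the genes to which it gave an adjusted p. The limma fit called 3 higher and 6 lower, beside 4.57% of all genes. At an unadjusted p under 0.05 there were 4 higher and 15 lower, and the share of all tested genes at this level was not counted. Of the 41 genes, the libraries did not overlap at 6 higher (beside 14.7% of all tested genes) and 15 lower (beside 12.8%). Their median log2 fold change was −0.05, with 17 genes above 0 and 24 below, beside 7170 and 7299 of all tested genes. Bhlhe40, a basic helix-loop-helix repressor induced by hypoxia and by many other signals, had 33906, 34059 and 34244 normalized counts in Pdcd1f/f and 43896, 43788 and 44294 in Pdcd1f/fLysMcre libraries. The replicates were tight and well separated (log2 fold change 0.37, SE 0.05, adjusted p = 0.00366). Ero1l, an oxidoreductase of disulfide bond formation in the endoplasmic reticulum, rose from 6429 ± 154 to 8374 ± 411 (0.38, SE 0.06, adjusted p = 0.00603). Nt5e, which encodes the ectonucleotidase CD73, rose from 2026 ± 114 to 2700 ± 227 (0.42, SE 0.08, adjusted p = 0.0159).

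The largest falls of this list were those of Angptl4 and Plin2. Plin2, a lipid droplet coat protein, had 28801, 32194 and 33164 normalized counts in Pdcd1f/f and 20199, 19571 and 21277 in Pdcd1f/fLysMcre libraries (log2 fold change −0.62, SE 0.07, adjusted p = 8.3e-04). Angptl4, a secreted inhibitor of lipoprotein lipase, had 168, 183 and 208 against 96.2, 93.3 and 114 (−0.88, SE 0.15, adjusted p = 0.00912). Both are also targets of the PPAR receptors, and the libraries did not overlap for either. Plod1, a collagen lysyl hydroxylase, fell from 11766 ± 1517 to 8920 ± 724 (−0.40, SE 0.10, adjusted p = 0.0420). Ddit4, an inhibitor of mTORC1 that also responds to glucocorticoids and other stress, fell from 701 ± 57.2 to 534 ± 33.3 (−0.39, SE 0.10, adjusted p = 0.0446). The other called genes were Cxcr4 (−0.30, adjusted p = 0.0185) and Mt1 (−0.27, adjusted p = 0.0390).

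Several of these calls were lost with 1 library fewer, at the fold changes given here. With GC and length offsets Ddit4 was at −0.25 and Ero1l at 0.26. Bhlhe40 and Plin2 were past the threshold in all 6 fits without 1 library. Ero1l lost the call without Pdcd1f/f replicate 2 (log2 fold change 0.38, adjusted p = 0.0514). Nt5e lost it without Pdcd1f/f replicates 2 or 3 or Pdcd1f/fLysMcre replicate 2, with log2 fold changes of 0.46, 0.37 and 0.35 and adjusted p-values of 0.0508, 0.0649 and 0.0552. Angptl4 lost it without Pdcd1f/f replicate 2 or Pdcd1f/fLysMcre replicate 1, with log2 fold changes of −0.89 and −0.84 and adjusted p-values of 0.0537 and 0.0632. Plod1 kept the call in 2 of 6 fits (log2 fold change −0.50 to −0.32) and Ddit4 in 1 of 6 (−0.46 to −0.34), with highest adjusted p-values of 0.190 and 0.212, both without Pdcd1f/f replicate 2. For the list, the fits without 1 library called 1 to 3 genes higher and 1 to 13 lower. Without Pdcd1f/f replicate 2 there was 1 higher and 1 lower, where 1.51% of all genes were called, and without Pdcd1f/f replicate 1 there were 3 higher and 13 lower, where 21.6% were. The fit with GC and length offsets called 4 higher and 15 lower, where 17.9% of all genes were called.

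The third list held 21 glycolytic HIF targets, all of which were tested. None rose and 1 fell, a share of 4.76% that is close to the 5.43% called over all tested genes, with a median log2 fold change of −0.08. At an unadjusted p under 0.05 there were 1 higher and 3 lower genes, again without a count of all tested genes at this level. DESeq2 called 0 higher and 2 lower (beside 12% of the genes to which it gave an adjusted p), and limma called 0 higher and 1 lower (beside 4.57% of all genes). Pfkfb3, which makes the allosteric activator of phosphofructokinase, had 9653, 9550 and 10135 normalized counts in Pdcd1f/f and 7936, 7660 and 7684 in Pdcd1f/fLysMcre libraries. The libraries did not overlap (log2 fold change −0.33, SE 0.06, adjusted p = 0.00901), and the call was lost without Pdcd1f/f replicate 2 (−0.35, adjusted p = 0.0571) and without Pdcd1f/fLysMcre replicate 1 (−0.35, adjusted p = 0.0594) at a similar fold change. The glucose transporter gene Slc2a1 was at 9998 ± 1089 and 8804 ± 587 (−0.18, adjusted p = 0.229). The lactate dehydrogenase gene Ldha (−0.03, adjusted p = 0.842) and the phosphoglycerate kinase gene Pgk1 (0.10, adjusted p = 0.407) overlapped between the genotypes. Without Pdcd1f/f replicate 1, 7 genes of this list were called lower, where 21.6% of all genes were called, and 0 or 1 was called lower without any one of the other libraries. With GC and length offsets 3 were called higher and 3 lower, where 17.9% of all genes were called. Slc2a1, Ldha and Pgk1 were picked once their values were known.

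**Figure D5:**
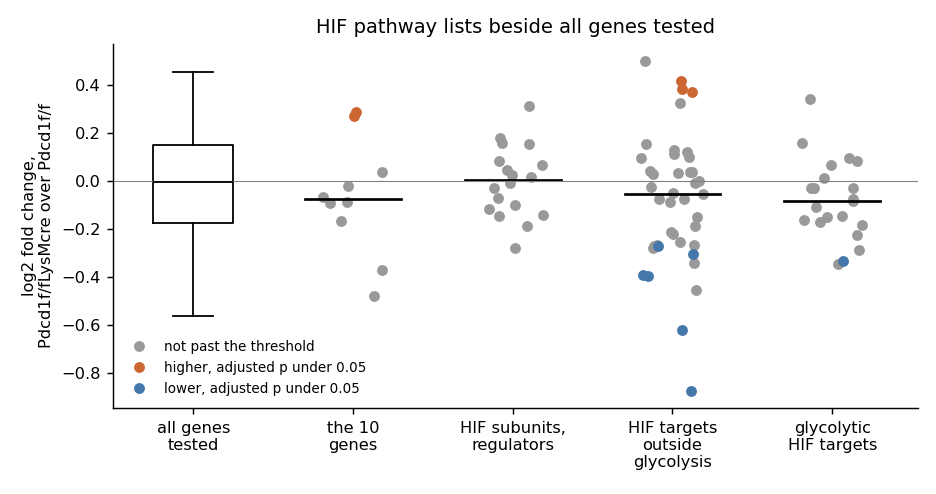
Each point is the log2 fold change of 1 gene, Pdcd1f/fLysMcre over Pdcd1f/f, for the 10 genes and the 3 further lists (horizontal bar, list median), beside a box of all genes tested (median, quartiles and whiskers from percentile 5 to percentile 95). Called genes are colored, 2 higher among the 10 genes, 3 higher and 6 lower among targets outside glycolysis and 1 lower among glycolytic targets.

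Marker levels of other cells differed between the genotypes for some genes, and their counts stand beside the 3.01% of all tested genes that were called lower. Summed endothelial markers were at 41.7 to 43.9 CPM in Pdcd1f/f and 34.3 to 36.5 CPM in Pdcd1f/fLysMcre libraries, and Tek and Esam had 10 counts or fewer in every library. Of the 5 tested only Pecam1 was called lower (log2 fold change −0.62), and Cdh5 (−0.009), Kdr (0.02), Vwf (−0.03) and Emcn (0.02) were not called. Summed neutrophil markers were at 139 to 143 CPM and 117 to 119 CPM, and Ly6g, Ngp and Camp had 10 counts or fewer in every library. Of the 6 tested, Csf3r (−0.51) and Mmp8 (−0.48) were called lower, whereas S100a8 (0.23), S100a9 (0.12), Cxcr2 (0.03) and Retnlg (−0.95) were not called. Fibroblast and tumor markers, of which 2 of 8 tested (Col1a2 and Fap) were lower, overlapped at 72.8 to 79.5 CPM and 68.2 to 76.3 CPM. T and NK cell markers, of which 0 of 2 tested was called, overlapped at 12.5 to 14.4 CPM and 11.4 to 13.9 CPM, and Cd3d, Cd3g, Cd8a and Ncr1 had 10 counts or fewer in every library. The part of these cells, and of the lower macrophage markers, in the changes of Hif1a, Ndrg1 and the other pathway genes was not tested.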

How the data were processed

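RNA from sorted TAMs was measured in 6 libraries, 3 Pdcd1f/f and 3 Pdcd1f/fLysMcre, grouped by the labels. The authors made stranded polyA libraries, trimmed reads with cutadapt 2.5, aligned them to GRCm38 with STAR 2.7.3a and deposited raw counts per Ensembl gene from featureCounts (Subread 1.6.2). The authors also deposited a table of 16552 genes with a normalized signal, the raw count divided by a DESeq2 (1.24.0) size factor of 0.895 to 1.08 per library. The printed normalized counts are these deposited values.

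Counts were tested here with edgeR 4.0.16 in R 4.3.3, using filterByExpr (minimum count 10, minimum total 15), TMM scaling, robust glmQLFit and the two-sided glmQLFTest, with Benjamini-Hochberg adjustment over 14469 genes and a threshold of 0.05. Intervals of 95% come from the quasi-likelihood standard error. Symbols, exon lengths and GC content came from GENCODE M21, which named 14454 of the tested genes. GC content is that of the longest transcript of each gene. Levels per kilobase used summed exon length. Ratios within libraries were compared by two-sided exact permutation tests. The scripts were tested on simulated data.

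The alternatives were RLE factors, scaling by library size only, a filter of at least 1 count in any library or 10 in each, DESeq2 1.42.0, limma 3.58.1 (limma-trend on log2 of the normalized value plus 1), the replicate number as a block, loess offsets for GC content and length (span 0.5) with and without the block, and each library left out. Leaving out Pdcd1f/f replicate 1 and Pdcd1f/fLysMcre replicate 2 together was added after seeing the data. The 10 genes and the lists were chosen with earlier results of these data known. Named genes are the 10, up to 4 rises and 4 falls per list among called genes, the 5 profiles nearest to Hif1a, and Lyz2 and Pdcd1. Others in the text, including Cxcr4, Mt1 and the list members that were not called, were chosen after their values were seen. Same-genotype libraries differed by more than counting noise (chi-square per gene 5.14 to 39.1). Separate preparations of the same RNA can also differ in this way, so these values cannot tell repeats from separate samples. Libraries were counted as separate by their labels.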

Additional observations from a re-analysis of the deposited data

How the results depend on the processing

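Of 160 values of the 10 genes under 16 alternatives, 134 kept their direction and side of the threshold, 10 passed it, 10 no longer passed it and 6 turned sign. The 786 calls over all genes became 1951 with all genes of at least 1 count, 1517 with DESeq2, 2595 with GC and length offsets, 2601 with these offsets and the replicate block, and 3757 without Pdcd1f/f replicate 1 and Pdcd1f/fLysMcre replicate 2 together. With 1 library left out they ranged from 222 to 3181, the highest without Pdcd1f/f replicate 1. The number of the 10 genes called higher was then 0 to 2, at 2 only without that library. The number called lower, 0 with all libraries, was 1 with all genes of at least 1 count, 3 with the offsets, 2 with the offsets and block, 0 to 1 with 1 library left out, and 1 with the pair left out. With the offsets 3 were called higher, with or without the block. In these fits 7.32%, 17.9%, 18%, 1.51% to 21.6% and 26.2% of all genes were called. Hif1a ranged from 0.22 to 0.31 with 1 library left out. Egln1 ranged from −0.014 (without Pdcd1f/f replicate 1) to 0.081 with 1 library left out and was −0.01 with the pair left out. Vegfa was 0.0015 with the offsets, 0.0014 with the offsets and block, and −0.062 to 0.0095 with 1 library left out, above 0 without Pdcd1f/f replicate 3 and Pdcd1f/fLysMcre replicate 1. Pdcd1 ranged from −0.58 to 0.015 with 1 library left out, above 0 without Pdcd1f/fLysMcre replicate 1, and was −0.79 with the pair left out. The cause of these shifts was not tested.

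The correlations of same-numbered deviations between the genotypes were −0.015, −0.089 and 0.186. Libraries with different numbers were not compared, so these values cannot show whether replicate numbers pair the libraries. With the replicate block Hif1a was 0.27 (adjusted p = 0.0422 from edgeR) and 1027 genes were called. Adm had 51 to 82 counts per library, so counting error adds to its spread, and the size of that part was not tested. No group of 3 libraries was tested for outlying samples.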
